A study of Oryza sativa with 10 samples.

Results

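A group of 19 rice genes fell in transcript level when dark-grown seedlings had been in the light for 8 h and stood higher again at 24 h. They were found among 1092 expressed genes on chromosome 1, out of 2282 genes with complete values. The members were chosen by their measured values. Each had a mean of at least 1 FPKM over all 10 libraries, a fall of at least 0.5 from 0 h to 8 h and a rise of at least 0.5 from 8 h to 24 h. FPKM is the number of fragments per kilobase of transcript, scaled to the mapped fragments of the library, and both steps were taken on the log2 scale as log2(mean FPKM + 1). The genes end at or before position 21262392 of chromosome 1 in the MSU7.0 rice genome. They are given by their MSU locus IDs, since no name or function is paired with these IDs in the sources used here. A fall and a rise of this size are therefore properties of the choice, and the light-series values are described without a test.

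Light switches a seedling that has grown in darkness from rapid elongation to photomorphogenesis, in which leaves unfold, chloroplasts develop and photosynthesis genes become active. Many transcripts respond early to light and then settle at another level, and many also follow the time of day through the circadian clock. Abscisic acid (ABA) is a hormone of drought responses and seed dormancy, and indole-3-acetic acid (IAA) is the main natural auxin, which directs cell elongation and organ growth.

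Polyadenylated RNA was sequenced from whole seedlings of the Indica rice cultivar YD6 in 5 conditions, with 2 biological replicates each. Seedlings were grown for 3 d in darkness (0 h) and then moved to light for 8 h or 24 h. For the ABA and IAA conditions, seedlings that had been in the light for 23 h and a further 30 min were sprayed with 100 μM of the hormone in 1% DMSO and sampled 30 min later. The methods also describe a spray of DMSO alone without saying whether the 24 h seedlings were given it, so hormone and solvent cannot be told apart in a comparison with 24 h. The ABA and IAA libraries share the solvent, the spray and the time in light. The clock time of sampling is not given, so the length of light and the time of day cannot be told apart in the steps to and from 8 h. If the same batch was followed, 0 h and 24 h share a time of day. Length of light and seedling age cannot be told apart in any step of the light series. Whole seedlings hold many cell types, and fewer cells of a type and less RNA per cell cannot be told apart.

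The sequencing depth behind the FPKM values is unknown. Over all 1092 tested genes, the median log2 difference was -0.18 from 0 h to 8 h, -0.17 from 8 h to 24 h and -0.38 from 0 h to 24 h. After the libraries were scaled to a common median ratio, with size factors between 0.837 and 1.23, the median from 0 h to 24 h was -0.02. Transcript levels of GLK2 (LOC_Os01g13740), a transcription factor gene of chloroplast development, were 20.6 ± 0.460 FPKM at 0 h, 21.0 ± 0.927 at 8 h and 34.4 ± 2.70 at 24 h (mean ± SD, n = 2).

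A fall of the required size from 0 h to 8 h occurred in 212 genes (19.4% of those tested), and a rise of the required size from 8 h to 24 h in 96 genes (8.79%). Both steps were met by the 19 members (1.74%). The falls ranged from -3.10 to -0.53 with a median of -1.18, which on the FPKM scale corresponded to levels 1.49 to 12.6 times lower at 8 h. The rises ranged from 0.57 to 3.62 with a median of 0.80, or 1.54 to 20.4 times in FPKM. The 8 h level was the lowest of the 5 conditions in all 19 members. In each of them both 8 h libraries lay below both 0 h libraries and both 24 h libraries, which over all tested genes was so in 57.9% and 21.2%.

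**Figure D1:**
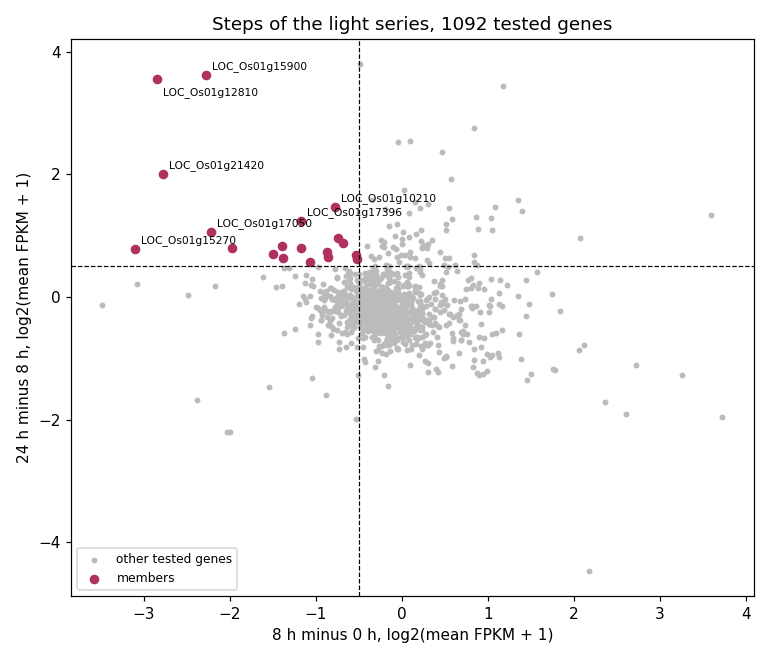
Change in transcript level from 0 h to 8 h (x axis) and from 8 h to 24 h (y axis) for the 1092 tested genes, each as a difference of log2(mean FPKM + 1). Dashed lines mark -0.5 and 0.5, the limits that chose the members, and the 19 members fill the upper left corner, with 5 of them beyond 1 in both steps.

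The deepest dip, taken as the smaller of both steps, was that of LOC_Os01g12810 (chromosome 1, 7092032 to 7095355, plus strand). Its transcript level was 59.5 and 55.3 FPKM at 0 h, 6.71 and 7.54 at 8 h, 96.9 and 92.9 at 24 h, 79.2 and 77.7 with ABA, and 53.5 and 51.7 with IAA. The level fell 8.06-fold and then rose 13.3-fold, so that both 24 h libraries stood above both 0 h libraries. The IAA libraries were the only light-grown ones apart from 8 h that lay below the 0 h range.

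LOC_Os01g15900 (8949249 to 8952712, minus strand) had the steepest rise. It measured 10.1 and 11.2 FPKM at 0 h, 1.36 and 1.44 at 8 h, 28.6 and 28.5 at 24 h, 29.5 and 30.4 with ABA, and 31.4 and 30.5 with IAA. After a 7.62-fold fall it rose 20.4-fold, and its 24 h mean was 2.68 times that of 0 h, the highest ratio among the members. The 24 h, ABA and IAA libraries all lay close together, above both dark libraries.

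LOC_Os01g21420 (11957243 to 11964812, plus strand) fell the most in FPKM terms, by a factor of 12.6. Its level was 12.6 and 13.1 FPKM at 0 h, 1.09 and 0.946 at 8 h, 7.58 and 6.59 at 24 h, 15.5 and 16.2 with ABA, and 6.50 and 6.19 with IAA. It came back to about 0.552 of its dark level at 24 h. The ABA libraries stood above every other library, while the IAA libraries lay just below the 24 h range.

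In LOC_Os01g17396 (10008036 to 10011595, minus strand) the dip was followed by a return to the dark level. It measured 5.50 and 6.21 FPKM at 0 h, 1.93 and 2.13 at 8 h, 6.35 and 5.96 at 24 h, 11.7 and 11.9 with ABA, and 15.1 and 14.9 with IAA. The 0 h and 24 h libraries overlapped, and the hormone libraries lay above both, with IAA the highest.

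LOC_Os01g17050 (9770015 to 9771037, minus strand) returned only in part. Its level was 9.68 and 10.1 FPKM at 0 h, 1.66 and 1.01 at 8 h, 4.47 and 3.27 at 24 h, 4.69 and 5.0 with ABA, and 4.29 and 4.04 with IAA. The 24 h replicates differed by more than the ABA and IAA means did, and both dark libraries stood above every other library.

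LOC_Os01g08140 (3937749 to 3938912, plus strand) and LOC_Os01g12770 (7071481 to 7073789, plus strand) had a similar course at different levels. LOC_Os01g08140 measured 32.7 and 31.9 FPKM at 0 h, 11.4 and 12.05 at 8 h, 24.0 and 19.5 at 24 h, 27.9 and 26.8 with ABA, and 25.8 and 24.5 with IAA. LOC_Os01g12770 measured 12.5 and 12.4 FPKM at 0 h, 5.10 and 4.91 at 8 h, 10.6 and 8.36 at 24 h, 12.2 and 11.7 with ABA, and 10.8 and 11.2 with IAA. In both genes the dark libraries were the highest and the 2 replicates of 24 h were the furthest apart.

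LOC_Os01g04330 (1930994 to 1931904, minus strand) fell 4.17-fold and rose 1.80-fold. Its level was 53.3 and 52.3 FPKM at 0 h, 13.1 and 12.2 at 8 h, 23.5 and 21.9 at 24 h, 46.9 and 50.2 with ABA, and 46.1 and 38.7 with IAA. At 24 h it stood at 0.430 of the dark level, and all 4 hormone libraries lay between the 24 h and the 0 h libraries.

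LOC_Os01g15270 (8545997 to 8546894, minus strand) was the most abundant member and had the largest fall on the log2 scale, -3.10. Its level was 791 and 726 FPKM at 0 h, 87.6 and 87.8 at 8 h, 155 and 147 at 24 h, 492 and 506 with ABA, and 379 and 328 with IAA. The 24 h level was 0.199 of the dark level, the lowest ratio among the members. The conditions did not overlap and ran, from low to high, 8 h, 24 h, IAA, ABA and 0 h.

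LOC_Os01g12760 (7061344 to 7065249, plus strand) measured 7.12 and 8.59 FPKM at 0 h, 2.07 and 2.23 at 8 h, 4.56 and 3.64 at 24 h, 12.6 and 13.8 with ABA, and 5.31 and 4.89 with IAA. The ABA libraries were the highest of all, and the IAA libraries lay between 24 h and 0 h. LOC_Os01g09620 (4949047 to 4951126, minus strand) measured 21.8 and 21.1 FPKM at 0 h, 9.28 and 10.1 at 8 h, 15.3 and 14.4 at 24 h, 37.2 and 36.7 with ABA, and 40.5 and 41.7 with IAA. Here both hormones stood above every library of the light series.

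The remaining members are given as mean ± SD (n = 2). LOC_Os01g10210 (5373582 to 5374794, plus strand) measured 83.8 ± 2.34 FPKM at 0 h, 48.4 ± 1.45 at 8 h, 135 ± 4.83 at 24 h, 136 ± 2.41 in the ABA libraries and 119.7 ± 0.0347 in those of IAA. Its 24 h and ABA libraries overlapped and stood above all the others. LOC_Os01g09320 (4738905 to 4744591, minus strand) measured 79.7 ± 0.951 FPKM at 0 h, 43.6 ± 0.197 at 8 h, 69.1 ± 2.73 at 24 h, 91.0 ± 3.10 in the ABA libraries and 95.0 ± 1.64 in those of IAA. The hormone libraries were higher than the dark ones, and those of 24 h were lower.

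LOC_Os01g09570 (4905501 to 4909514, plus strand) measured 16.5 ± 0.407 FPKM at 0 h, 9.49 ± 0.307 at 8 h, 19.5 ± 1.06 at 24 h, 26.9 ± 0.234 in the ABA libraries and 23.5 ± 0.842 in those of IAA. LOC_Os01g15640 (8792646 to 8797363, minus strand) measured 13.9 ± 1.21 FPKM at 0 h, 9.34 ± 0.230 at 8 h, 14.8 ± 0.295 at 24 h, 24.5 ± 0.123 in the ABA libraries and 22.4 ± 0.564 in those of IAA. In both of these genes the order from 8 h upward was 0 h, 24 h, IAA and ABA by the means. LOC_Os01g08130 (3932329 to 3933352, plus strand) measured 32.4 ± 2.60 FPKM at 0 h, 11.8 ± 0.510 at 8 h, 18.8 ± 3.25 at 24 h, 24.5 ± 0.275 in the ABA libraries and 26.1 ± 0.441 in those of IAA. Its dark libraries stood above all the others.

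LOC_Os01g01910 (496066 to 497368, plus strand) and LOC_Os01g18220 (10200476 to 10203694, minus strand) had the lowest mean levels of the group. LOC_Os01g01910 measured 3.69 ± 0.0101 FPKM at 0 h, 1.57 ± 0.192 at 8 h, 3.30 ± 0.568 at 24 h, 5.12 ± 0.162 in the ABA libraries and 5.11 ± 0.318 in those of IAA. LOC_Os01g18220 measured 0.977 ± 0.0307 FPKM at 0 h, 0.363 ± 0.0405 at 8 h, 1.18 ± 0.0175 at 24 h, 2.45 ± 0.0283 in the ABA libraries and 1.28 ± 0.324 in those of IAA. In LOC_Os01g18220 the ABA libraries stood above all the others, and its IAA replicates spanned the 24 h values. LOC_Os01g26039 is described with the IAA results.

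**Figure D2:**
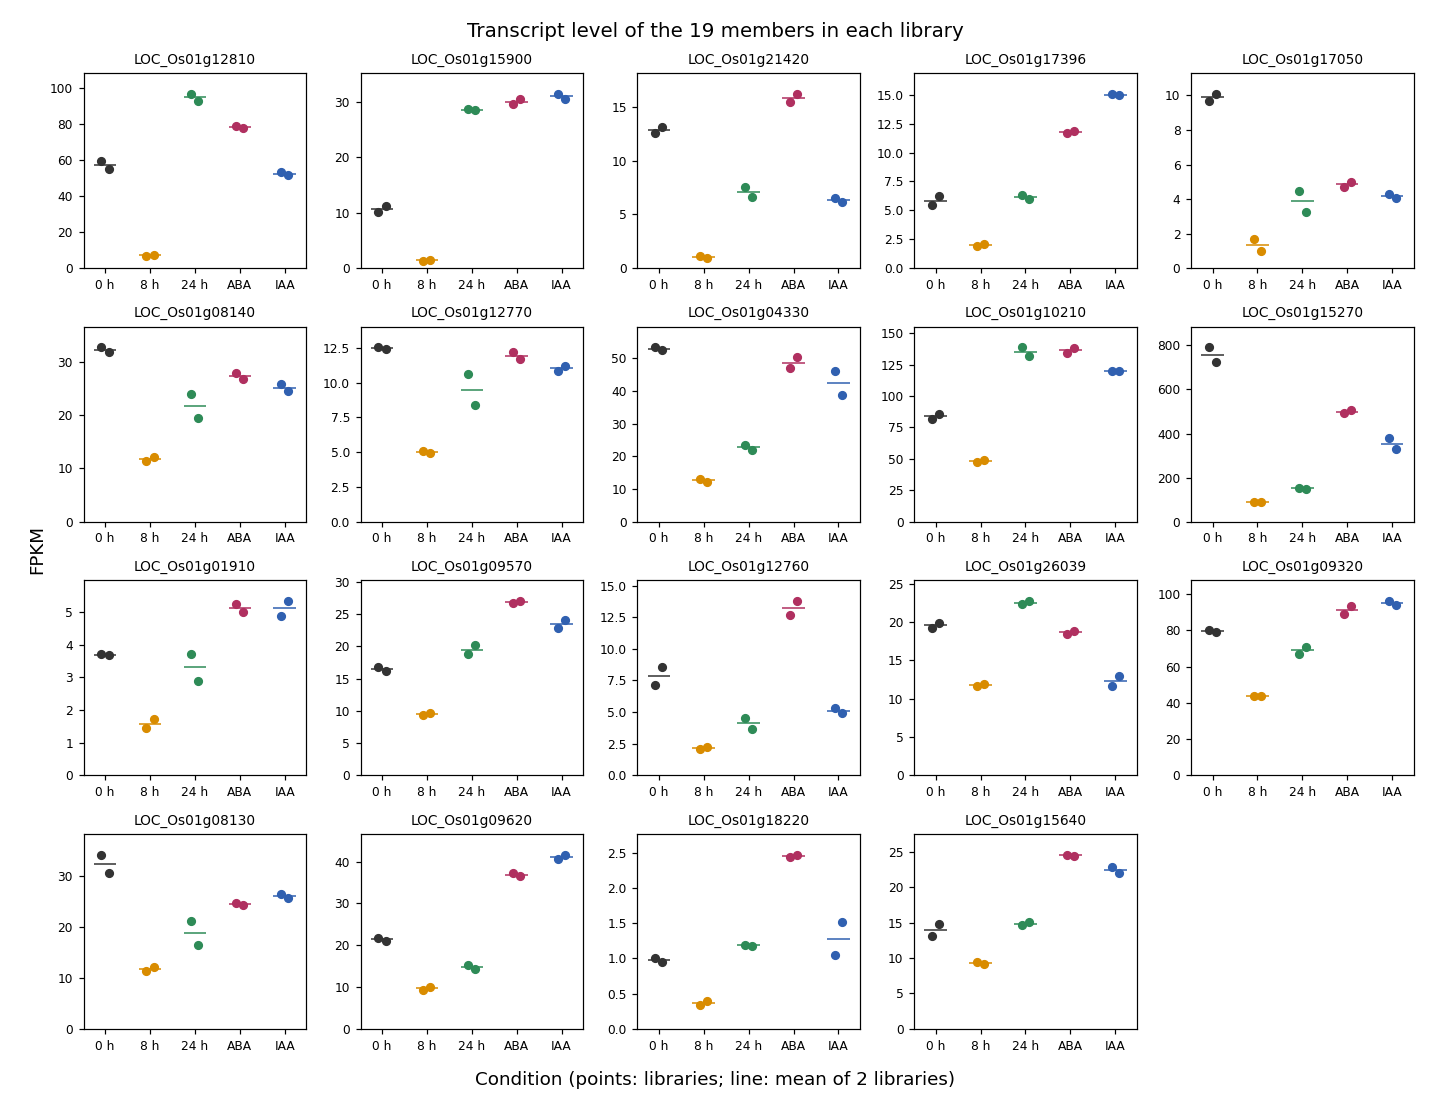
FPKM (y axis, from 0, its own scale for each gene) of the 19 members in the 5 conditions (x axis), from the deepest dip at the upper left to the shallowest at the lower right. Points are single libraries and lines are means of 2, and the 8 h points are the lowest condition in every panel.

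Members differed in how far they returned. Both 24 h libraries stood above both 0 h libraries in 6 members, LOC_Os01g12810, LOC_Os01g15900, LOC_Os01g10210, LOC_Os01g09570, LOC_Os01g26039 and LOC_Os01g18220, with ratios of 24 h to 0 h from 1.15 to 2.68 (19.8% of all tested genes were so ordered). Both lay below in 10 members, with ratios from 0.199 to 0.866 (68.1% of all tested genes). In LOC_Os01g17396, LOC_Os01g01910 and LOC_Os01g15640 the 0 h and 24 h libraries overlapped. By their means 8 members were higher at 24 h than at 0 h (24.5% of all tested genes) and 11 were lower. After scaling to a common median ratio 11 were higher (48.3% of all tested genes) and 8 lower. LOC_Os01g01910, LOC_Os01g09320 and LOC_Os01g12770 were the 3 members whose direction turned with the scaling.

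The members nearest to the limits were LOC_Os01g15640, with steps of -0.53 and 0.62, LOC_Os01g18220, with -0.54 and 0.68, and LOC_Os01g09620, with -1.07 and 0.57. Just outside lay LOC_Os01g08020, which fell by 0.49 and rose by 3.80, LOC_Os01g10530, with -0.98 and 0.49, and LOC_Os01g29104, with -1.37 and 0.48. LOC_Os01g08020 rose from 1.26 FPKM at 8 h to 30.4 at 24 h, a steeper rise than that of any member. Membership near the limits depended on small differences, and without the second 0 h replicate LOC_Os01g15640 was lost, as was LOC_Os01g08130 without the first 24 h replicate. Scaling to a common median ratio lost LOC_Os01g15640, LOC_Os01g18220 and LOC_Os01g26039, with steps to 8 h of -0.34, -0.42 and -0.49, and gained 5 other genes.

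The levels after the sprays were compared with limma on log2(FPKM + 1) in one fit over all libraries. A gene was called at a 2-fold difference or more with a Benjamini-Hochberg adjusted p under 0.01 over the 1092 genes. Since biological replicates number 2 per condition, the spread is estimated with information shared across genes. The IAA and ABA libraries had no part in the steps that chose the members but entered the filter on mean level. That filter was decided by them for 1 member, LOC_Os01g18220, whose mean was 1.25 FPKM over all libraries, 0.841 over the light series and 0.951 without the ABA libraries. Its differences between ABA and the other conditions are therefore a description, also where it is counted among members that passed a test. The comparisons with 24 h reuse the 24 h libraries that chose them, and a choice on high 24 h values favours lower hormone values relative to 24 h.

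IAA and ABA differed most in LOC_Os01g21420 and LOC_Os01g12760, which were both lower with IAA. LOC_Os01g21420 had a mean of 6.35 FPKM with IAA and 15.9 with ABA, a log2 difference of -1.20 (SE 0.090, limma with Benjamini-Hochberg adjusted p = 7.10e-07). LOC_Os01g12760 had 5.10 FPKM with IAA and 13.2 with ABA, a log2 difference of -1.22 (SE 0.114, limma with Benjamini-Hochberg adjusted p = 3.91e-06). In both genes the 2 libraries of IAA lay below the 2 of ABA, at levels 2.50 and 2.59 times apart. These were the 2 members called lower with IAA, against 0.916% of all tested genes, and 0 members were called higher, against 4.85%. After scaling to a common median ratio the members' counts were again 2 and 0, against 1.56% and 2.47%.

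At any size of difference, limma with an adjusted p under 0.01 found 6 members lower with IAA than with ABA (6.04% of all tested genes) and 1 higher (36.2%), and 11 members had an unadjusted p under 0.05 in either direction (60.6%). After scaling 13 members were lower (17.1%) and 0 higher (13.8%). Then 16 members had an unadjusted p under 0.05, as did 581 of the 1092 tested genes. Besides the 2 called genes, the 6 lower members were LOC_Os01g12810 (-0.57), LOC_Os01g15270 (-0.50), LOC_Os01g26039 (-0.57) and LOC_Os01g18220 (-0.61). LOC_Os01g18220 was kept by the filter only through its high ABA values, and with the filter on the light series alone 5 members were lower. This gene is also among the lower members after scaling, in both counts at an unadjusted p under 0.05, and in the sign and library-order counts that follow. With the filter on the light series alone, 10 members had an unadjusted p under 0.05 before scaling. The single higher one was LOC_Os01g17396 (0.32), with 15.0 FPKM in IAA and 11.8 in ABA. The members' median log2 difference was -0.18, beside 0.21 over all tested genes. With the filter on the light series alone these medians were -0.15 and 0.21. By sign, 14 members were lower and 5 higher with IAA while 74.7% of all genes were higher, and after scaling to a common median ratio 18 were lower and 1 higher with 45.9% of all genes higher. Both IAA libraries lay below both ABA libraries in 13 members (17.6% of all tested genes) and above in 5 (62.5%).

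With ABA, 5 members stood at least 2-fold above 24 h and passed the test (1.65% of all tested genes), and 0 stood below (0.366%). LOC_Os01g15270 had the largest difference, from a mean of 151 FPKM at 24 h to 499 with ABA (log2 difference 1.72, SE 0.071, limma with Benjamini-Hochberg adjusted p = 1.67e-08). LOC_Os01g12760 was next, with 4.10 FPKM at 24 h and 13.2 with ABA (1.48, SE 0.114). LOC_Os01g09620 reached 36.9 FPKM from 14.9 (1.26, SE 0.065), and its libraries in both conditions lay well apart.

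The 2 remaining called genes lay close to the 2-fold limit. LOC_Os01g04330 had 48.6 FPKM with ABA and 22.7 at 24 h (1.06, SE 0.081). LOC_Os01g21420 had 15.9 FPKM with ABA and 7.08 at 24 h (1.06, SE 0.090), and without the second 24 h replicate its difference was 0.97, under the 2-fold limit, which left 4 members called. Apart from LOC_Os01g15270, the limma adjusted p of the called genes, after Benjamini-Hochberg adjustment, ran from 5.61e-08 for LOC_Os01g09620 to 3.99e-06 for LOC_Os01g21420.

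Smaller differences from 24 h were frequent with ABA. At any size, 11 members were higher at an adjusted p under 0.01 with limma (7.51% of all tested genes), and 1, LOC_Os01g12810, was lower (12.2%), from 94.9 to 78.4 FPKM. The choice on 24 h values favours such a fall. The 11 include LOC_Os01g18220, as do the other counts of members higher with ABA in this paragraph. With the filter on the light series alone 10 members were higher at this adjusted p. After scaling 14 were higher (12.3%) and 0 lower (3.94%), since LOC_Os01g12810 no longer passed (log2 difference -0.15, limma adjusted p = 0.0926). Both ABA libraries lay above both 24 h libraries in 16 members (21.1% of all tested genes) and below in 2, LOC_Os01g12810 and LOC_Os01g26039 (47.5%). The median log2 difference of the members was 0.44, beside -0.10 over all tested genes. With the filter on the light series alone these medians were 0.42 and -0.11. By sign 17 members were higher and 2 lower, with 34.2% of all genes higher, and the members' split was 17 and 2 after scaling too, with 49.7% of all genes higher.

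With IAA, 3 members were called above 24 h (4.67% of all tested genes) and 0 below (0.0916%). LOC_Os01g09620 rose from 14.9 to 41.1 FPKM (log2 difference 1.41, SE 0.065, limma with Benjamini-Hochberg adjusted p = 2.26e-08). LOC_Os01g15270 stood at 354 FPKM with IAA (1.22, SE 0.071, limma with Benjamini-Hochberg adjusted p = 1.30e-07). LOC_Os01g17396 went from 6.16 to 15.0 FPKM (1.16, SE 0.087, limma with Benjamini-Hochberg adjusted p = 8.93e-07), and no library of IAA overlapped 24 h in any of these 3 genes.

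LOC_Os01g12810 and LOC_Os01g26039 moved the other way with IAA, the direction that the choice of members on high 24 h values favours. Their tests against 24 h are not independent of that choice. LOC_Os01g12810 dropped from 94.9 to 52.6 FPKM, a log2 difference of -0.84 (SE 0.065, limma with Benjamini-Hochberg adjusted p = 1.00e-06). After scaling its difference was -1.01 and it was called at 2-fold, with a limma adjusted p of 3.57e-07. The members called after scaling were then 3 higher (3.3% of all tested genes) and 1 lower (0.549%). LOC_Os01g26039 measured 19.3 and 19.9 FPKM at 0 h, 11.6 and 11.95 at 8 h, 22.4 and 22.8 at 24 h, 18.5 and 18.9 with ABA, and 11.7 and 12.9 with IAA. Its log2 difference from 24 h was -0.83 with IAA (SE 0.068, limma with Benjamini-Hochberg adjusted p = 1.30e-06), and the IAA libraries overlapped those of 8 h.

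At any size of difference from 24 h, 9 members were higher with IAA by limma at an adjusted p under 0.01 (28.3% of all tested genes), and 2 were lower (7.6%), the 2 genes just described. Lower counts in this comparison are favoured by the choice on 24 h values. After scaling 6 were higher (17.1%) and 3 lower (16.4%). Both IAA libraries lay above both 24 h libraries in 13 members (51.2% of all tested genes) and below in 4 (22.3%). The median log2 difference was 0.26 over the members and 0.13 over all tested genes. By sign 15 members were higher and 4 lower with 65.4% of all genes higher, and after scaling 12 were higher and 7 lower with 48.8% of all genes higher. The ABA and IAA comparisons share the 24 h libraries and are not independent of each other.

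**Figure D3:**
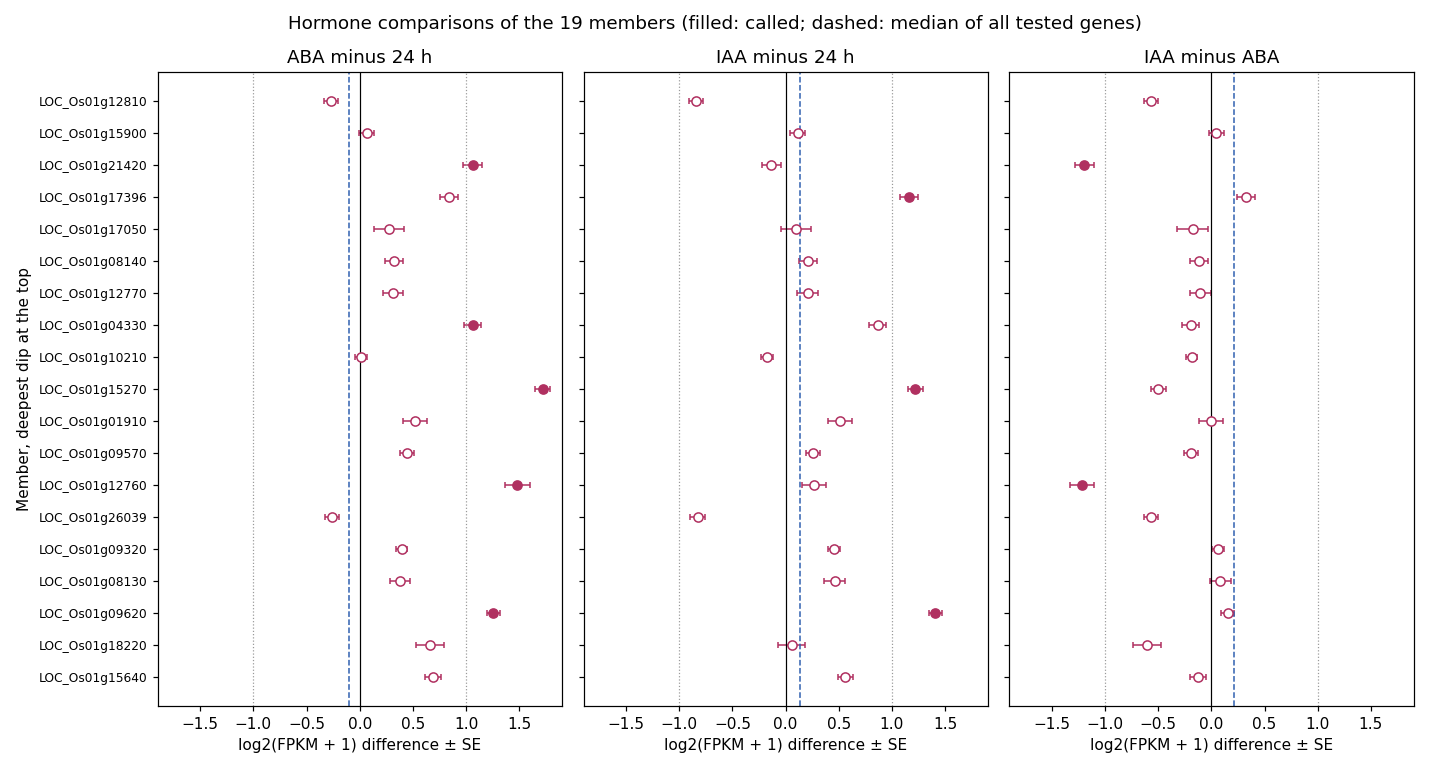
Log2(FPKM + 1) difference (x axis, ± SE from limma) of each of the 19 members (y axis, deepest dip at the top) for ABA minus 24 h, IAA minus 24 h and IAA minus ABA. Filled points passed 2-fold and an adjusted p under 0.01, namely 5, 3 and 2 genes, dotted lines mark 2-fold, and the dashed line is the median of all tested genes at -0.10, 0.13 and 0.21.

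Members were mostly higher in the sprayed seedlings than at 8 h. All 4 hormone libraries lay above both 8 h libraries in 18 members (19.7% of all tested genes), and LOC_Os01g26039 was the exception. These comparisons use the 8 h libraries that chose the members and are a description. The highest of the 5 conditions was ABA in 7 members, 0 h in 6, IAA in 4 and 24 h in 2. These numbers have no all-gene share beside them, and the choice of members barred 8 h from being the highest. LOC_Os01g18220, kept by the filter only through its ABA values, is among the 7, among the 18 and among the members higher with ABA than at 0 h. The ABA mean exceeded the 0 h mean in 12 members, or 17 after scaling, where over all tested genes it did so in 24.2% and 49.7%. The IAA mean exceeded the 0 h mean in 9 members, or 11 after scaling, where over all tested genes it did so in 33.1% and 50.1%.

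The members were spread over both strands, with 9 on the plus and 10 on the minus strand, and 49.5% of all tested genes were on the plus strand. None of the 19 overlapped another gene model of the table. In 7 of them another member lay within 50 kb. LOC_Os01g08130 and LOC_Os01g08140 are neighbours on the plus strand, 4.40 kb apart, with nearly equal means at 8 h of 11.8 and 11.7 FPKM and at 24 h of 18.8 and 21.7. LOC_Os01g12760, LOC_Os01g12770 and LOC_Os01g12810 lie in that order on the plus strand, 6.23 and 18.2 kb apart. LOC_Os01g12770 and LOC_Os01g12810 are not direct neighbours, and LOC_Os01g12790, outside the group, lies 6110 bp from LOC_Os01g12770. These members differed in response. LOC_Os01g12760 was 1.48 above 24 h with ABA on the log2 scale, LOC_Os01g12770 0.31 above and LOC_Os01g12810 0.27 below. LOC_Os01g09570 and LOC_Os01g09620 lie 39.5 kb apart on opposite strands.

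Within 500 bp of 6 members a gene model lay on the other strand, and the methods state that reads were counted without regard to strand but name no strand setting for the FPKM calculation, so their reads could in part be assigned to either model. The gap was 18 bp at LOC_Os01g12810, whose neighbour LOC_Os01g12820 had a mean of 0.0711 FPKM. It was 267 bp at LOC_Os01g17396, whose neighbour LOC_Os01g17390 had a higher mean, 53.5 FPKM. LOC_Os01g17390 changed by 0.09 from 0 h to 8 h and by 1.36 from 8 h to 24 h. The other 4 were LOC_Os01g26039, LOC_Os01g08140, LOC_Os01g15640 and LOC_Os01g09570. Whether such reads had a part in the values was not tested, and no share over all tested genes was taken for the count of 6.

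Genes outside the group with the most similar course over the 10 libraries were sought by Pearson correlation with the mean member profile of log2(FPKM + 1), which is a description over libraries that share conditions. LOC_Os01g03390 was the closest, at 0.943, and its mean level was 91.4 FPKM at 0 h, 57.3 at 8 h and 80.2 at 24 h. After ABA it was 108 FPKM and after IAA 105. LOC_Os01g06500 and LOC_Os01g22010 followed at 0.934 each. The rises of these 3 genes from 8 h, 0.48, 0.46 and 0.39, were below the limit. Among the members the same measure, with each gene part of its own reference, ran from 0.52 for LOC_Os01g26039 to 0.97 for LOC_Os01g12770, with a median of 0.89.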

How the data were processed

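RNA-seq reads were trimmed with seqtk and mapped to MSU7.0 with Hisat2, and the authors deposited FPKM values, calculated with Cufflinks according to the methods, with 1 column for each of the 10 libraries. The submitters' processing notes list HISAT2, SAMtools, featureCounts and DESeq2. In a supplementary figure the same values carry the label TPM, so FPKM rests on the methods and the table's name. Of the rows used here 2282 were complete and 1 incomplete row was left out. At low values, under 0.1 FPKM, at most 8.70% of genes shared one ratio between replicates within 2%, so counts could not be recovered and no count model was used.

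Genes averaging 1 FPKM or more (1092) entered a limma fit of log2(FPKM + 1) (version 3.58.1, R 4.3.3) by lmFit and trended eBayes, with 1 coefficient per condition. This step was tested on simulated data for IAA against ABA, where it found 195 of 200 changed genes (97.5%) at 3-fold among 1092 genes, with 0 false calls among 892 unchanged genes. Changes under 3-fold, such as those of called members close to the 2-fold limit, were not tested in this way. Nor were the comparisons with 24 h. The other steps used Python 3.11.15 with numpy 2.4.6, pandas 2.3.3 and matplotlib 3.10.9.

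The members, tests and named genes were chosen with earlier results of these data known. All members are named. Values in every library are given for the 8 deepest dips and for each member called with a hormone, and the 3 genes nearest to each side of the limits and the 3 most similar non-members are named. Alternatives were a pseudocount of 0.1, median-of-ratios scaling, no filter, a mean of at least 5 FPKM, steps of 1, an adjusted p under 0.05, a replicate block, a fit of only the 4 libraries compared and each replicate left out in turn. Gene families, promoter motifs and sequences were not analysed here, since 0 of the 2282 IDs could be matched to the RefSeq table. The replicate numbers were not taken as pairs, since deviations of same-numbered libraries correlated between -0.0654 and 0.109.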

Additional observations from a re-analysis of the deposited data

Results flagged for a closer look

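In LOC_Os01g21420 and LOC_Os01g12760 the response to the 2 sprays differed by a direct test of the difference between them. For LOC_Os01g21420 the log2 difference of IAA minus ABA was -1.198, with ABA minus 24 h at 1.06 and IAA minus 24 h at -0.14. For LOC_Os01g12760 it was -1.219, with ABA minus 24 h at 1.48 and IAA minus 24 h at 0.26. Both differences were taken between the IAA and ABA libraries, so the 24 h libraries did not enter them. The limma test took its spread from all 10 libraries.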

How the results depend on the processing

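The number of members was 19 as reported, 30 with a pseudocount of 0.1 (all 19 kept and 11 gained) and 5 with steps of 1. It was 21 after median-of-ratios scaling (16 kept), 20 without the filter and 16 at a minimum mean of 5 FPKM, 18 with the filter on the light-series libraries alone (an alternative chosen after seeing the data, which lost LOC_Os01g18220 and left the calls at 5, 3 and 2), and between 18 and 25 with each light-series replicate left out in turn. Scaling moved the members' median log2 difference to -0.42 for IAA minus ABA, to 0.56 for ABA minus 24 h and to 0.087 for IAA minus 24 h, and called 1 member lower with IAA than at 24 h, LOC_Os01g12810. With each replicate left out in turn these medians ran from -0.20 to -0.13, from 0.43 to 0.54 and from 0.13 to 0.36. The last was 0.36 without the first 24 h replicate and 0.13 without the second. With the replicate number as a block the calls were the same in number, 5 higher with ABA and 3 higher with IAA than at 24 h, and 2 lower with IAA than with ABA. The labels do not say that the numbers pair the libraries. Each condition has 2 libraries and the depth is unknown, so a gene at low FPKM, such as LOC_Os01g18220, may be measured with less precision than the SE gives.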
